A study of Mus musculus with 75 samples.

Results

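The 39 genes described here drive the cell division cycle. Of these, 19 act at the G1/S transition and in DNA replication (the G1/S genes) and 20 act in G2 and mitosis (the G2/M genes). They were taken by gene symbol, from lists chosen with earlier results of these data known. All 39 were found among the 45706 gene entries of the deposited count tables. All 39 also passed the filter on low counts, which left 13665 genes for testing.

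Messenger RNA with poly(A) tails was sequenced from mouse embryonic fibroblasts (MEFs), connective tissue cells grown from C57BL/6 embryos and labelled as primary cells. Every culture, controls included, was p53-/-crel-/-rela-/-, and so lacked the tumour suppressor p53 and the NF-kB subunits c-Rel and RelA. Each carried the retroviral vector pBABE-puro, either empty (EV) or with a RelA gene, wild-type in RelA-WT and mutant in the others, so RelA came from the vector and not from its own locus. After a night in 0.5% serum the cells received 10 ng/ml of the inflammatory cytokine tumour necrosis factor (TNF), and RNA was taken at 0, 0.5, 1, 3 and 8 h. RelA-dTAD, RelA-dTA1, RelA-WT and EV each had 2 libraries at each time, 1 in each of 2 deposited sets. Single libraries at each time came from RelA-dCterm and RelA-DB (set 1) and from RelA-TA2_CI_S467A-dTA1, RelA-TA2_CI-dTA1, RelA-TA2_CI_S467A, RelA-TA2_CI and RelA-TA2_S467A (set 2); the labels name these mutants without describing them. No library came from cells kept without TNF beyond 0 h, so the effect of TNF and that of time in low serum cannot be told apart. The labels do not say that replicates were separate cultures, so p-values measure the spread between these libraries only.

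Cells enter the division cycle when growth signals raise cyclin D1, which with its kinase partners frees E2F transcription factors from the retinoblastoma proteins. E2F then drives cyclin E and the genes that license origins and copy DNA. The mitotic genes come later and are held down in resting cells by the DREAM complex, which binds the CHR element, and are driven in G2 by NF-Y at CCAAT boxes and by B-Myb and FOXM1. In fibroblasts, low serum slows this programme, and p53 is one of the factors that normally switches the mitotic genes off through its target p21.

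Depth was 4422396 to 6915919 gene reads for set 1 (30 libraries) and 10440202 to 22908738 for set 2 (45 libraries). A member gene had 15 to 2467 reads per library of set 1, against 78 to 10437 for set 2. Values are given in CPM, read counts scaled to library size by the trimmed mean of M values. Rela, the gene put back, stood at 16.1 ± 0.846 CPM (SD, n = 2) in EV at 0 h and at 1308 ± 233 CPM in RelA-WT (n = 2). Over all times it ran from 1143 to 1770 CPM in RelA-WT, from 849 to 2617 in RelA-dTA1 and from 1113 to 6717 in RelA-dTAD. All 12 fibroblast markers were detected, with summed levels of 42049.5 to 54456.9 CPM at 0 h. The 6 macrophage markers summed to 1.60 to 5.81 CPM over 0, 3 and 8 h, and Ptprc, the pan-leukocyte marker, was at 0 in 46 of the 75 libraries. Of the same list, Cd68 was at 0 in 0 libraries (median 2.67 CPM) and Csf1r in 1 (median 0.583 CPM). Among 4 endothelial markers Kdr stood at 15.6 to 45.0 CPM, while Pecam1, Cdh5 and Tie1 reached at most 0.792, 0.821 and 0.177 CPM. All 39 genes had a higher median level in set 2 than in set 1 over the 20 matched groups, by a median log2 of 0.40 for the G1/S genes and 0.43 for the G2/M genes, against 0.03 over all genes tested. What the sets differ in besides depth is not given in the sources used here, and its part in the levels was not tested. For this reason values are given by set, and results are also given from a second fit with a term for the set (the replicate block) where that fit changed a call.

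The promoters of the members carry the sequence elements named above to different degrees, and 6 are shown as the 150 bases before the RefSeq start site (GRCm38.p6, 5′ to 3′ on the gene's strand). Capitals mark the CHR element with the letters TTTGAA, the box CCAAT, and E2F sites with the letters TTTCCCGC or TTTCGCGC or TTTGCCGC or TTTGGCGC, each searched on both strands, so that a capital run can be the reverse complement and overlapping sites share capitals. Ccnb2, Cdk1 and Mki67 stand for the G2/M genes that fell at 8 h in EV, Mcm6 and Cdt1 for the G1/S genes with opposite differences between EV and RelA-WT below, and Cdc20 for a gene that fell in all 4 replicated constructs.
Ccnb2, chr9:70421555-70421704, minus strand: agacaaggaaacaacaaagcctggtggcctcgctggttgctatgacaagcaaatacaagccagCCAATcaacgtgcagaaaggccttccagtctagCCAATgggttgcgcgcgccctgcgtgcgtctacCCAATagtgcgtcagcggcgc
Cdk1, chr10:69352913-69353062, minus strand: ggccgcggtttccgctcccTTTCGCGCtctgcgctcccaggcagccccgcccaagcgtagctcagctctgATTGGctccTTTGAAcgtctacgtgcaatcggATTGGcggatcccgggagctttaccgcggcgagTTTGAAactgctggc
Mki67, chr7:135716380-135716529, minus strand: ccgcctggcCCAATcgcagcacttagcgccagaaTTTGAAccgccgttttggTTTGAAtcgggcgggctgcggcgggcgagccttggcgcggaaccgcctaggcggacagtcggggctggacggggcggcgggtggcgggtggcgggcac
Cdc20, chr4:118437344-118437493, minus strand: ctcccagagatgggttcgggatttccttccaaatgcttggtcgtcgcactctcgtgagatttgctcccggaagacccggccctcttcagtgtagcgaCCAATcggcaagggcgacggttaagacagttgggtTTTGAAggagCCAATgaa
Mcm6, chr1:128359706-128359855, minus strand: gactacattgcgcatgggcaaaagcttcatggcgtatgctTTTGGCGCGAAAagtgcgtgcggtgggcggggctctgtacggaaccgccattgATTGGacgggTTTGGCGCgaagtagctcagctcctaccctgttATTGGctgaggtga
Cdt1, chr8:122567865-122568014, plus strand: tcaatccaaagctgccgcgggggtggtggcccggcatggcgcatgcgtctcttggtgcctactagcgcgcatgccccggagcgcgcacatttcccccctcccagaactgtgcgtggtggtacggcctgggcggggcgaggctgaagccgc
In these windows Ccnb2 had 3 CCAAT boxes, Cdk1 had 2 CHR elements, 2 CCAAT boxes and 1 E2F site, and Mki67 had 2 CHR elements and 1 CCAAT box. The Mcm6 window held 3 E2F sites, a pair of them overlapping, and 2 CCAAT boxes, and the Cdt1 window held none of the motifs. In the longer promoter of 300 bases searched for the shares that follow, Cdt1 had 1 E2F site and Ccnb2 had 2 CHR elements. A promoter of 250 bases before to 50 after the start was listed for 31 members, 15 G1/S and 16 G2/M. The end of each promoter was searched for in annotated transcripts of its gene, and 24 of 33 promoters matched. Those of Ccnb2, Mki67 and Mcm6 did not, and the reason was not tested. CHR was found in 12 of 16 G2/M genes (75%), in 2 of 15 G1/S genes (13.3%) and in 20.2% of all 27025 genes of the table. CCAAT was found in 15 of 16 G2/M genes (93.8%), in 10 of 15 G1/S genes (66.7%) and in 41.1% of all genes. E2F sites were found in 1 of 16 G2/M genes, Cdk1, and in 7 of 15 G1/S genes (46.7%), against 2.6% of all genes. The kB motif, the site of NF-kB, was found in 2 of 16 G2/M genes and 1 of 15 G1/S genes (12.5% and 6.67%), against 6.55% of all genes; these were Kif23, Birc5 and Mcm7, named after their windows were searched. A match is a run of letters and not a measured binding site.

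Before TNF the members differed widely in level, and no difference between constructs was called. Per kilobase of exon, levels at 0 h in RelA-WT ran from 1.60 CPM per kb for Cdc6, which loads the replicative helicase, to 71.5 for Ccnd1, which encodes cyclin D1. Ccnd1 stood apart from the next gene in that order, Kif20a at 36.8 CPM per kb, while the neighbours Kif20a, Rrm1 (36.1) and Cdc20 (36.0) were close together. No member passed the test between constructs at 0 h in any of 4 comparisons, in which 0.563% (EV minus RelA-WT), 0% (RelA-dTA1 minus RelA-WT), 0.0293% (RelA-dTAD minus RelA-WT) and 0.644% (RelA-dTAD minus EV) of all genes were called. The log2 differences of the 39 genes ran from -0.27 to 0.03 for EV minus RelA-WT, from -0.42 to -0.04 for RelA-dTA1 minus RelA-WT, from -0.22 to 0.15 for RelA-dTAD minus RelA-WT and from -0.23 to 0.25 for RelA-dTAD minus EV. The values for RelA-dTA1 were below 0 for all 39 genes, and none of the 39 had an unadjusted p under 0.05 in any of the 4 comparisons.

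In the first hour of TNF no member passed the test. Over 0.5 and 1 h in the 4 replicated constructs, fitted log2 changes lay between -0.66 and 0.31 for the G1/S genes and between -0.32 and 0.39 for the G2/M genes. None had an adjusted p under 0.05 in edgeR's quasi-likelihood test, and none had an unadjusted p under 0.05. Of all genes, 0.402% in EV, 0.812% in RelA-WT, 0.629% in RelA-dTA1 and 0.439% in RelA-dTAD were called at 0.5 h, and 0.827%, 3.24%, 1.62% and 0.549% at 1 h. In single courses the G2/M genes were often on 1 side of 0 together at 0.5 h, all changes of a course being taken from its 1 library at 0 h. In RelA-dTA1, 19 of 20 were above 0 in set 1 and 20 of 20 in set 2 (median log2 0.26 in both), as were 20 of 20 in RelA-dTAD of set 2 (0.30) and in RelA-TA2_CI-dTA1 (0.37, highest 0.80). All 20 were also above 0 in RelA-DB (0.23) and RelA-TA2_CI (0.23), and 19 in RelA-TA2_S467A (0.22) and EV of set 2 (0.16). In RelA-TA2_CI_S467A 0 of 20 were above 0 (-0.15), and in RelA-TA2_CI_S467A-dTA1 3 were (-0.12). The other courses were mixed. In set 1, 9 were above 0 in EV (-0.05) and RelA-WT (-0.05), and 14 in RelA-dTAD (0.07) and RelA-dCterm (0.08). In RelA-WT of set 2, 14 were above 0 (0.08). At 1 h the median was -0.01 in RelA-TA2_CI-dTA1 and 0.21 in RelA-dTAD of set 2. With the replicate block 1 member was called, Ccne1 in RelA-WT at 1 h, which encodes cyclin E1. It went from 12.4 to 9.24 CPM in set 1 and from 23.4 to 16.0 CPM in set 2 (log2 -0.50, adjusted p = 0.0263 in the edgeR fit with the block), where 2.31% of all genes fell.

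At 8 h the G2/M genes were lower than at 0 h in every construct. Of the 20 genes, 15 fell in EV, 10 in RelA-WT, 9 in RelA-dTA1 and 13 in RelA-dTAD (edgeR quasi-likelihood test, adjusted p under 0.05 over all genes), and none rose. The share of all genes that fell was 23.1% in EV, 11.6% in RelA-WT, 15.3% in RelA-dTA1 and 22.5% in RelA-dTAD. The median log2 change of the 20 genes was -0.87 in EV, -0.87 in RelA-WT, -0.79 in RelA-dTA1 and -0.92 in RelA-dTAD, against -0.02, -0.03, -0.02 and -0.02 over all genes. With the replicate block all 20 fell in each of the 4 constructs, where 30.7%, 21.7%, 25.6% and 31.6% of all genes fell. With no filter on low counts and no block all 20 fell too, where 11.4%, 5.79%, 7.28% and 10.8% of 27388 genes fell. That fit used the same counts of these genes and changed only the genes used for scaling and spread. Its calls are therefore no further evidence from the libraries. In single courses (1 construct in 1 set), each of the 20 genes was below its 0 h level in 15 of 15 courses. In bulk RNA, fewer dividing cells and less mitotic RNA per cell cannot be told apart. Leaving out 1 set of a construct lowered the counts in each construct, with no gene turning to the other direction. The median log2 change was then -0.88 (set 1 out) and -0.93 (set 2 out) in EV and -0.72 and -1.15 in RelA-WT. In RelA-dTA1 it was -0.73 and -0.89, and in RelA-dTAD -0.94 and -0.89.

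**Figure D1:**
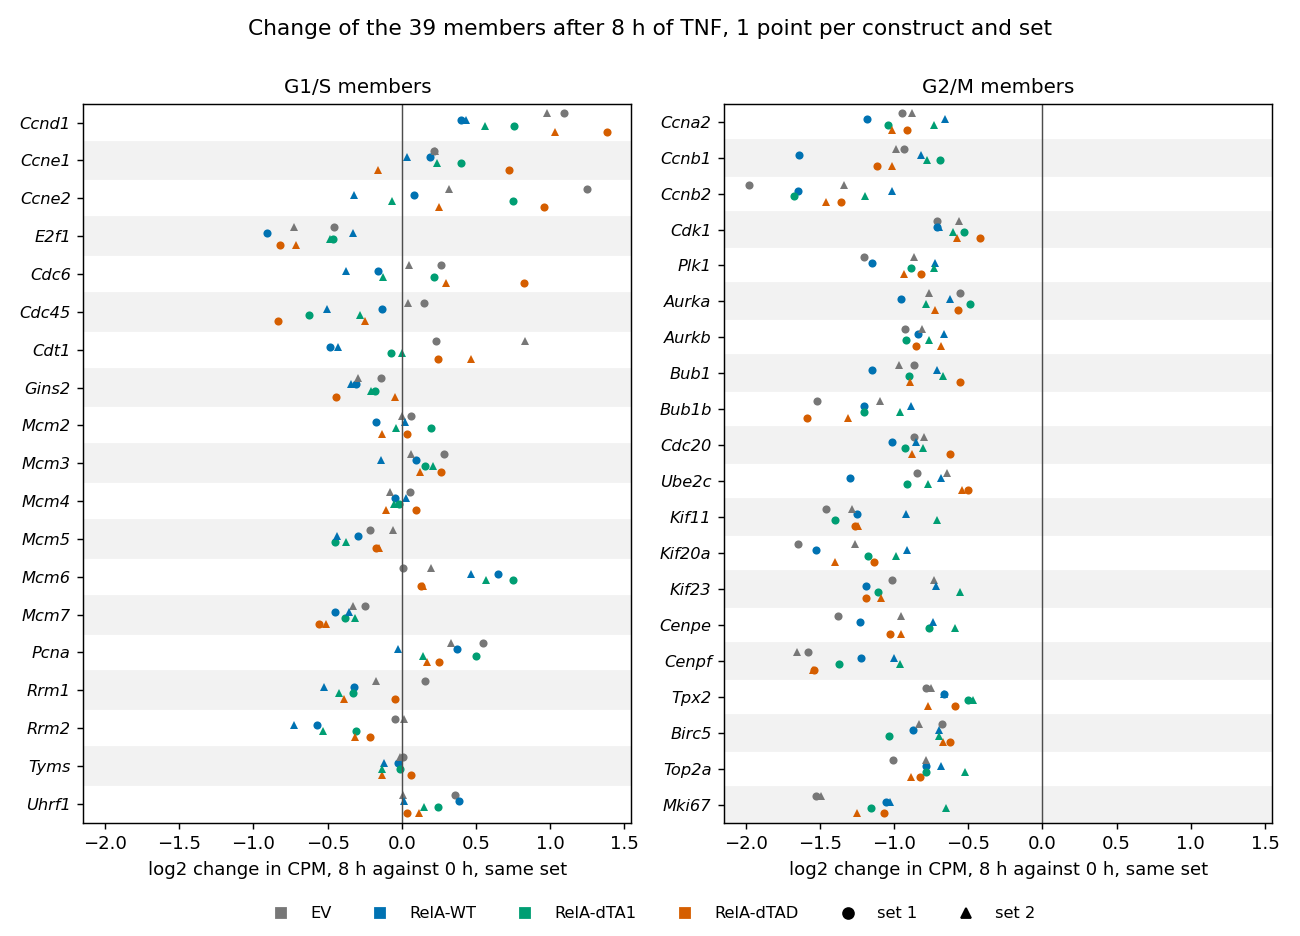
Log2 change in CPM at 8 h against 0 h of the same construct and set (x axis) for the 19 G1/S genes (left) and 20 G2/M genes (right), 1 point per construct and set. Every G2/M point lies left of 0, while the G1/S genes lie on both sides.

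Among the mitotic cyclins and CDK1, the kinase they switch on, 4 of 4 genes fell in EV, 3 in RelA-WT, 2 in RelA-dTA1 and 3 in RelA-dTAD. Cyclin B2 showed the clearest fall: Ccnb2 (ENSMUSG00000032218.6, mm10 chr9:70407692-70421547) went from 50.9 to 12.8 CPM in set 1 and from 47.8 to 18.8 in set 2 of EV. In RelA-WT it went from 49.9 to 15.8 and from 55.4 to 27.3 CPM, and in RelA-dTA1 from 43.8 to 13.6 and from 44.5 to 19.4. In RelA-dTAD it went from 50.1 to 19.5 and from 51.3 to 18.5 CPM. Every 8 h library lay below every 0 h library. The log2 changes ± SE were -1.57 ± 0.18 in EV (adjusted p = 7.91e-08), -1.25 ± 0.17 in RelA-WT (4.34e-06), -1.38 ± 0.17 in RelA-dTA1 (9.51e-07) and -1.42 ± 0.17 in RelA-dTAD (3.03e-07). The fall came late: at 3 h Ccnb2 still stood at 36.6 and 41.0 CPM in EV and at 40.6 and 43.2 CPM in RelA-WT.

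Ccna2 (cyclin A2, ENSMUSG00000027715.7, chr3:36564865-36572150), which acts from S phase to early mitosis, went from 95.0 to 49.1 and from 119 to 64.6 CPM in EV. In RelA-WT it went from 85.8 to 37.7 and from 130 to 82.6 CPM. The fall passed the test in EV (-0.87 ± 0.31, adjusted p = 0.0244), RelA-dTA1 (-0.83, 0.0393) and RelA-dTAD (-0.96, 0.0133), and in RelA-WT the value was -0.82 ± 0.31 (adjusted p = 0.05002, just over the threshold, and 4.33e-06 with the block). Ccnb1 (cyclin B1, ENSMUSG00000041431.14, chr13:100778650-100786570) went from 19.2 to 10.0 and from 28.8 to 14.5 CPM in EV. In RelA-WT it went from 19.7 to 6.19 and from 28.6 to 16.1 CPM. It fell in EV (-0.92, adjusted p = 0.0287), RelA-WT (-1.04, 0.0225) and RelA-dTAD (-1.06, 0.0123), and stood at -0.72 in RelA-dTA1 (0.0986, and 0.00135 with the block). For Ccna2 and Ccnb1 both 8 h libraries lay below both 0 h libraries in all 4 constructs. Without set 1 or set 2 of EV the calls there were lost (Ccna2 0.163 and 0.161, Ccnb1 0.121 and 0.215), as were both in RelA-dTAD, Ccna2 in RelA-dTA1, and Ccnb1 in RelA-WT without set 1 (0.155). Exons of Ccna2 overlap those of Exosc9 on the other strand, and whether strand was used in the counting is not given in the sources used here.

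**Figure D2:**
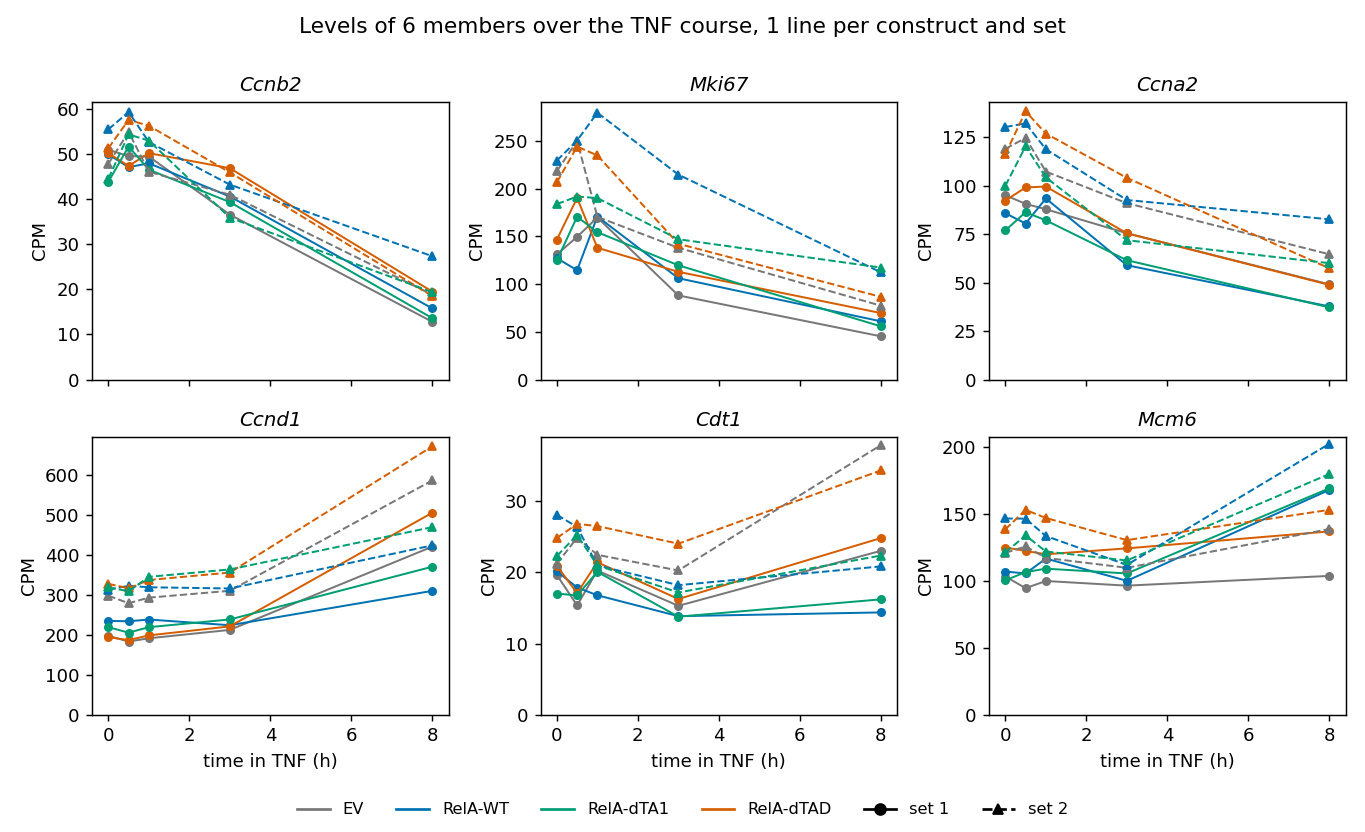
CPM (y axis, from 0) against hours in TNF (x axis) for 3 G2/M genes (top) and 3 G1/S genes (bottom), 1 line per construct and set, set 1 solid and set 2 dashed. Ccnb2, Mki67 and Ccna2 end below their start in every line, Ccnd1 ends highest in RelA-dTAD and EV, and Mcm6 ends highest in RelA-WT and RelA-dTA1 within each set.

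Motors and kinetochore proteins made up the largest group of G2/M genes: of 7 genes (Kif11, Kif20a, Kif23, Cenpe, Cenpf, Tpx2 and Birc5), 6 fell in EV, 5 in RelA-WT, 5 in RelA-dTA1 and 6 in RelA-dTAD. Kif20a (ENSMUSG00000003779.13, chr18:34624613-34633277), a kinesin of cytokinesis, went from 127 to 40.5 and from 140 to 58.3 CPM in EV and from 121 to 41.7 and from 159 to 84.3 CPM in RelA-WT. Its log2 change was -1.39 in EV (adjusted p = 4.88e-05), -1.13 in RelA-WT (0.000935), -1.05 in RelA-dTA1 (0.00142) and -1.27 in RelA-dTAD (0.000132). Cenpf (ENSMUSG00000026605.12, chr1:189640606-189688086), a kinetochore protein that accumulates in G2, went from 51.2 to 17.0 and from 74.3 to 23.5 CPM in EV and from 54.6 to 23.4 and from 79.5 to 39.6 CPM in RelA-WT. Its log2 change was -1.58 in EV (0.000175), -1.07 in RelA-WT (0.00868), -1.09 in RelA-dTA1 (0.00591) and -1.54 in RelA-dTAD (0.000176). For both genes the highest 8 h library lay below the lowest 0 h library in EV and RelA-WT. Leaving out set 1 took Cenpf out of the called genes in RelA-WT (adjusted p = 0.0710) and RelA-dTA1 (0.144), and Kif20a in RelA-dTA1 (0.0705). Exons of Kif20a overlap those of Cdc23 on the other strand.

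Mki67 (ENSMUSG00000031004.7, chr7:135689784-135716361) encodes Ki-67, the usual marker of cycling cells, and Top2a the topoisomerase that untangles chromosomes. Mki67 went from 131 to 45.4 and from 218 to 77.5 CPM in EV, from 127 to 61.1 and from 230 to 112 in RelA-WT, from 125 to 55.8 and from 184 to 117 in RelA-dTA1, and from 147 to 69.8 and from 207 to 86.7 in RelA-dTAD. Both 8 h libraries lay below both 0 h libraries in all 4 constructs. It fell in EV (log2 -1.46, adjusted p = 0.00744) and RelA-dTAD (-1.16, 0.0283). In RelA-WT (-1.03, 0.0755) and RelA-dTA1 (-0.81, 0.145) it passed with the block (0.000764 and 0.00341) and with no filter on low counts (5.78e-14 and 5.27e-09). The no-filter values rest on the same 2 libraries at each time, with the spread estimated beside many low-count genes. They are no further evidence from the libraries, and why they are lower was not tested. Without either set, the calls in EV and RelA-dTAD were lost too, with adjusted p of 0.0691 to 0.221. Of the pair, both genes fell in EV and in RelA-dTAD and neither passed in RelA-WT or RelA-dTA1 in the filtered fit without the block.

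The mitotic kinases and spindle checkpoint genes (Plk1, Aurka, Aurkb, Bub1 and Bub1b) were nearly all short of the threshold: 2 of 5 fell in EV, Bub1 and Bub1b, and 1 in each other construct, Bub1b. Bub1b, the checkpoint kinase BubR1, is named here after its values were seen. It went from 70.4 to 24.4 and from 84.6 to 39.5 CPM in EV and from 72.9 to 31.6 and from 103 to 55.6 in RelA-WT (log2 -1.22, adjusted p = 0.000335, and -0.99, 0.00386). The 5 genes had log2 changes of -1.22 to -0.63 in EV and -0.99 to -0.69 in RelA-WT, and all 5 were called in each construct with the block. Of the 2 genes that promote anaphase, Cdc20, the activator of the anaphase-promoting complex, fell in all 4 constructs, and Ube2c, its ubiquitin carrier, passed in none (-0.85 to -0.52), but in all 4 with the block and in all 4 with no filter on low counts. Cdc20 and Ube2c were also chosen after their values were seen.

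At 3 h the G2/M genes were part of the way down. All 20 fitted log2 changes were below 0 in EV (median -0.38) and in RelA-WT (median -0.38), and the medians were -0.24 in RelA-dTA1 and -0.21 in RelA-dTAD. None passed the test, where 0.922% of all genes fell in EV, 5.74% in RelA-WT, 4.87% in RelA-dTA1 and 0.629% in RelA-dTAD. An unadjusted p under 0.05 was reached by 2 of the 20 genes in EV and 1 in RelA-WT. With no filter on low counts 6, 8, 5 and 2 fell, where 514, 2048, 1800 and 423 of 27388 genes were called in either direction. Of those called, 78.0%, 63.2%, 65.8% and 81.6% were higher. With the block, 11 fell in EV, 13 in RelA-WT, 6 in RelA-dTA1 and 0 in RelA-dTAD, where 7%, 14.1%, 13.4% and 5.06% of all genes fell. The difference of the 3 h change was tested itself, and no member passed for any of 4 pairs of constructs in either fit, where without the block 3.68% of all genes passed for EV minus RelA-WT, 3.1% for RelA-dTAD minus RelA-WT, and 0% for RelA-dTA1 minus RelA-WT and for RelA-dTAD minus EV. The smallest adjusted p of the 20 genes was 0.945 for RelA-dTAD minus RelA-WT (0.227 with the block). Ccna2, for example, was at 75.4 and 91.0 CPM in EV and at 75.4 and 104 CPM in RelA-dTAD at 3 h. Of the 19 G1/S genes none passed at 3 h either, where 3.94% of all genes in EV, 16.3% in RelA-WT, 14.4% in RelA-dTA1 and 2.91% in RelA-dTAD did. With the block 3 G1/S genes were called in EV, 10 in RelA-WT, 4 in RelA-dTA1 and 1 in RelA-dTAD (16.2%, 30.9%, 30.5% and 12.4% of all genes). With no filter 5 were called, all lower in RelA-WT: E2f1, Rrm2, Cdt1, and Cdc45 and Mcm2, the latter pair named after their values were seen. In that fit 2048 of 27388 genes were called in RelA-WT, in either direction.

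The G1/S genes did not move as 1 group at 8 h. Of 19 genes, 2 rose in EV (Ccnd1 and Pcna), 1 in RelA-WT (Mcm6), 1 in RelA-dTA1 (Mcm6) and 1 in RelA-dTAD (Ccnd1). None fell in EV, RelA-WT or RelA-dTA1, and 2 fell in RelA-dTAD (E2f1 and Mcm7). Of all genes, 25.6% rose in EV, 15.8% in RelA-WT, 19.4% in RelA-dTA1 and 24.4% in RelA-dTAD. The shares that fell were 23.1%, 11.6%, 15.3% and 22.5% in the same order. The median log2 change of the 19 genes was 0.13 in EV, -0.19 in RelA-WT, -0.01 in RelA-dTA1 and -0.01 in RelA-dTAD. With the block, 4 rose and 2 fell in EV, 2 rose and 7 fell in RelA-WT, 3 rose and 5 fell in RelA-dTA1, and 3 rose and 2 fell in RelA-dTAD, where 31.9%, 23.1%, 26.6% and 31.8% of all genes rose. With the block 30.7%, 21.7%, 25.6% and 31.6% of all genes fell. With no filter on low counts, 4 rose and 1 fell in EV, 2 rose and 3 fell in RelA-WT, and 2 rose and 3 fell in RelA-dTA1. In that fit 12.1%, 6.92% and 8.85% of 27388 genes rose and 11.4%, 5.79% and 7.28% fell. Leaving out either set ended both rises in EV and both falls in RelA-dTAD, and leaving out set 1 ended the rise of Mcm6 in RelA-WT and RelA-dTA1 and of Ccnd1 in RelA-dTAD.

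Ccnd1 (ENSMUSG00000070348.4, chr7:144929931-144939925), the G1 cyclin that answers to growth signals, rose in EV and RelA-dTAD. It went from 198 to 421 CPM in set 1 and from 298 to 587 in set 2 of EV, and in RelA-dTAD from 194 to 506 and from 328 to 673. In RelA-WT it went from 235 to 310 and from 313 to 424 CPM, and in RelA-dTA1 from 219 to 371 and from 319 to 470. Within each set the 4 constructs at 8 h ran in the order RelA-WT, RelA-dTA1, EV and RelA-dTAD, while at 3 h the levels were 212 to 239 CPM in set 1 and 311 to 364 in set 2. The rise passed in EV (log2 1.06 ± 0.36, adjusted p = 0.0178) and RelA-dTAD (1.18 ± 0.36, 0.00923). In RelA-WT (0.42 ± 0.36, 0.416) and RelA-dTA1 (0.65 ± 0.36, 0.167) it passed with the block (0.000102 and 3.75e-08) and with no filter on low counts (0.00591 and 1.92e-06). Without set 1 of EV its adjusted p there was 0.157, and without set 2 it was 0.0846. Exons of Ccnd1 overlap those of LTO1 on the other strand.

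The cyclin E genes, which act after cyclin D1, did not pass at 8 h. Ccne2 (ENSMUSG00000028212.14, chr4:11191351-11204779) went from 8.71 to 20.9 and from 14.5 to 18.2 CPM in EV, and from 7.15 to 7.59 and from 17.8 to 14.2 in RelA-WT. Its log2 change in EV was 0.76 ± 0.45 (adjusted p = 0.164, 0.0148 with the block, and 0.009 with no filter on low counts), and it overlaps Ints8 on the other strand. Ccne1 (ENSMUSG00000002068.14, chr7:38097984-38107534) went from 12.2 to 14.2 and from 18.3 to 21.4 CPM in EV and from 12.4 to 14.2 and from 23.4 to 24.0 in RelA-WT. At 3 h it stood at 18.6 and 29.6 CPM in RelA-WT, above both its 0 h and its 8 h level in each set (log2 0.43, adjusted p = 0.626, and 0.0139 with the block). E2f1 (ENSMUSG00000027490.15, chr2:154559407-154569892), the transcription factor that cyclin-dependent kinases release, went from 35.3 to 19.9 and from 41.8 to 25.4 CPM in RelA-dTAD and fell there (-0.75, adjusted p = 0.0183). In EV it went from 29.2 to 21.2 and from 42.3 to 25.4 (-0.58, 0.0674), and in RelA-WT from 34.6 to 18.4 and from 42.7 to 34.1 (-0.53, 0.123). With the block E2f1 fell in all 4 constructs, and it was below its 0 h level in 15 of 15 courses.

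Among the 10 genes that license and fire origins (Cdc6, Cdc45, Cdt1, Gins2 and Mcm2 to Mcm7), the sign of the change differed from gene to gene. Mcm6 (ENSMUSG00000026355.9, chr1:128331590-128359664), a subunit of the replicative helicase, rose in RelA-WT from 107 to 168 and from 147 to 203 CPM (log2 0.55 ± 0.17, adjusted p = 0.0174). It rose in RelA-dTA1 from 100 to 169 and from 121 to 180 CPM (0.67 ± 0.17, 0.00355). In EV it went from 103 to 104 and from 121 to 139 CPM (0.15 ± 0.17), and in RelA-dTAD from 125 to 137 and from 139 to 153 (0.15 ± 0.17). Its partners in the same helicase ring did not pass the test without the block in RelA-WT, with log2 changes of -0.05 for Mcm2, -0.04 for Mcm3, 0.00 for Mcm4, -0.37 for Mcm5 and -0.39 for Mcm7, the partners being shown for this contrast after their values were seen. With the block 4 of the 10 licensing and firing genes fell in RelA-WT and 1 rose. Mcm7 fell in RelA-dTAD from 59.0 to 40.02 and from 69.4 to 48.6 CPM (-0.52, adjusted p = 0.0166). Mcm7 hosts the small RNAs Mir25 and Mir93 and overlaps Cops6 and Ap4m1 on the other strand.

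Cdt1 (ENSMUSG00000006585.2, chr8:122568015-122573554), which loads the helicase onto origins, had changes of opposite sign in EV and RelA-WT. It went from 19.6 to 23.0 and from 21.2 to 37.9 CPM in EV, and from 20.2 to 14.4 and from 28.1 to 20.9 CPM in RelA-WT. In RelA-dTA1 it went from 17.0 to 16.2 and from 22.3 to 22.4 CPM, and in RelA-dTAD from 20.9 to 24.8 and from 24.8 to 34.3. The log2 changes were 0.63 ± 0.28 in EV (adjusted p = 0.0688) and -0.44 ± 0.29 in RelA-WT (0.277), and both passed with the block (3.89e-05 and 0.00484). Pcna, the clamp that holds DNA polymerase, went from 34.2 to 50.0 and from 40.9 to 51.5 CPM in EV and rose there (0.47 ± 0.17, 0.0212), and from 33.2 to 43.1 and from 44.0 to 43.2 CPM in RelA-WT (0.16). Rrm1 and Rrm2, the subunits of ribonucleotide reductase, which makes the building blocks of DNA, stood at log2 changes of 0.01 and 0.03 in EV. In RelA-WT the values were -0.44 (adjusted p = 0.352, and 0.00152 with the block) and -0.66 (0.18, and 0.000254 with the block). Rrm2 went from 39.8 to 38.6 and from 53.1 to 53.6 CPM in EV, and from 33.7 to 22.6 and from 67.9 to 41.1 in RelA-WT.

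The difference of the 8 h change between constructs was tested directly. Constructs differed in their range of Rela level over the course as well as in RelA sequence, and the part of that level was not tested. No member passed in EV minus RelA-WT, where 17.6% of all genes passed, nor in RelA-dTAD minus RelA-WT (12.2%), RelA-dTA1 minus RelA-WT (0%) or RelA-dTAD minus EV (0.00732%). An unadjusted p under 0.05 was reached by Cdt1 in EV minus RelA-WT and by Cdt1 in RelA-dTAD minus RelA-WT. These comparisons share the RelA-WT libraries. Without the filter on low counts, 3 members passed in EV minus RelA-WT, Ccnd1 (0.62, adjusted p = 0.00517), Cdt1 (1.06, 0.00307) and Rrm2 (0.68, 0.0335), where 4.21% of all 27388 genes were higher. In RelA-dTAD minus RelA-WT 2 then passed, Ccnd1 (0.76, 0.000359) and Cdt1 (0.83, 0.0464), where 3.09% were higher. With the replicate block, 5 G1/S genes had a higher change in EV than in RelA-WT, where 18.3% of all genes did. Their log2 differences ± SE were 0.65 ± 0.12 for Ccnd1 (adjusted p = 6.09e-05), 0.91 ± 0.35 for Ccne2 (0.0441), 1.09 ± 0.18 for Cdt1 (1.13e-05), 0.45 ± 0.15 for Rrm1 (0.0228) and 0.67 ± 0.20 for Rrm2 (0.00769). Mcm6 had a lower change in EV than in RelA-WT (-0.40 ± 0.12, 0.00749), where 15.2% of all genes did. In RelA-dTAD minus RelA-WT the block gave a higher change for Ccnd1 (0.78 ± 0.12, 4.79e-06), Cdt1 (0.84 ± 0.17, 0.000325) and Cdc6 (0.79 ± 0.29, 0.0401, named after its values were seen), where 14.9% of all genes did, and a lower one for Mcm6 (-0.40 ± 0.11, 0.00701), where 12.9% did.

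**Figure D3:**
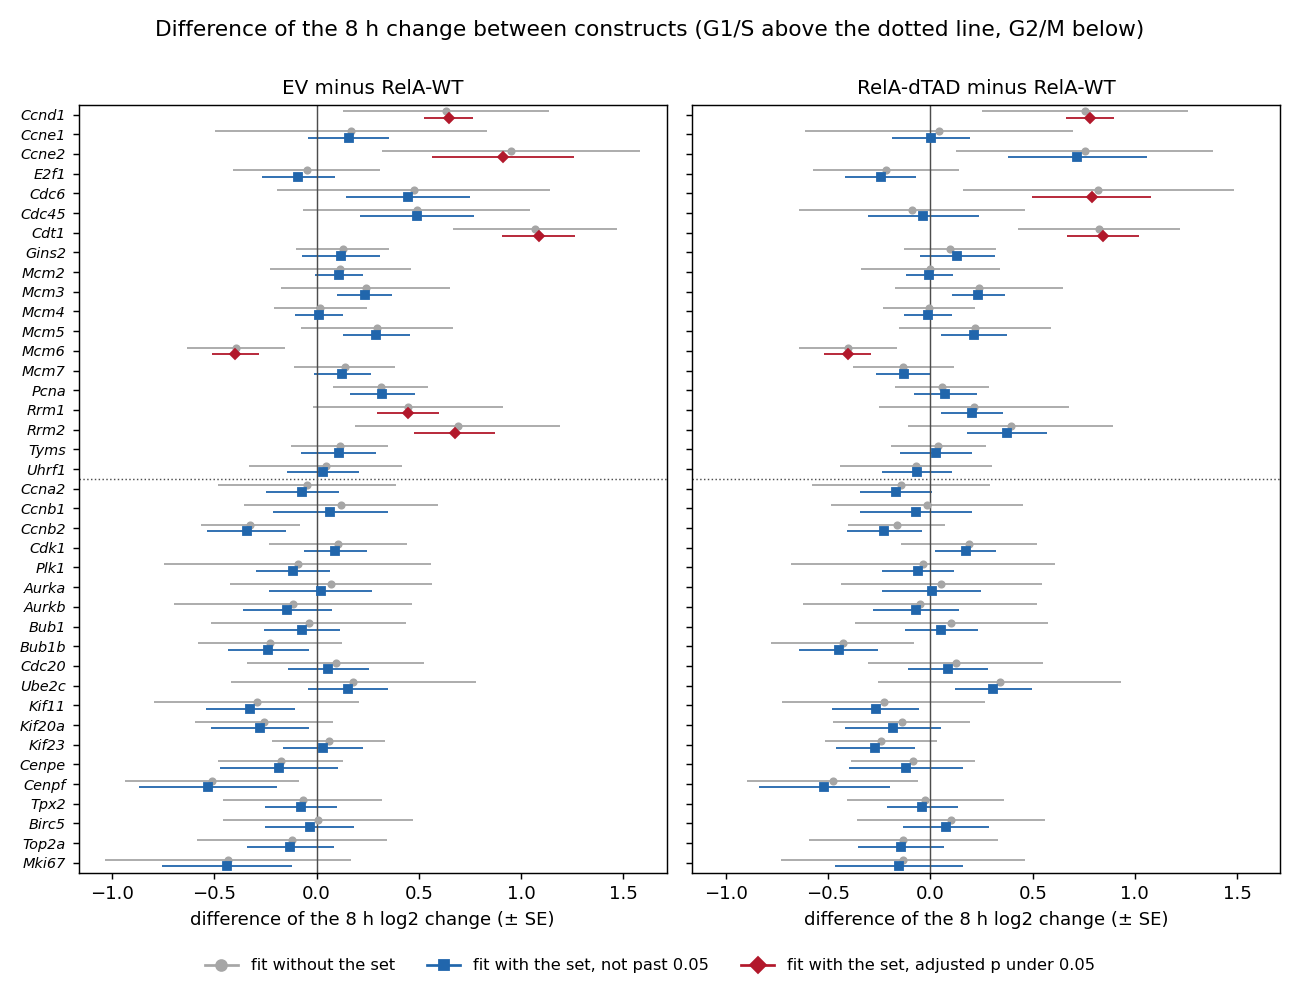
Difference of the 8 h log2 change (x axis, ± SE) between EV and RelA-WT (left) and RelA-dTAD and RelA-WT (right) for each gene, from the fit without the set (grey) and with it (blue, or red where the adjusted p was under 0.05). The red points are all G1/S genes.

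For the G2/M genes no difference in the 8 h change was called in any pair of constructs, in either fit. The log2 differences of the 20 genes ran from -0.51 to 0.18 for EV minus RelA-WT, with standard errors of 0.24 to 0.65 (0.15 to 0.34 with the block). For RelA-dTAD minus RelA-WT they ran from -0.48 to 0.34. The most negative named values for EV minus RelA-WT were Cenpf at -0.51 ± 0.43, Mki67 at -0.43 ± 0.60 and Ccnb2 at -0.32 ± 0.24.

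In the 7 constructs with 1 library at each time there is no replicate check and no test, and a gene is counted when its CPM changed past 2-fold. Of the 20 G2/M genes, 9 were lower past 2-fold at 8 h in RelA-DB, where 18.2% of all 15090 genes were, and 9 in RelA-dCterm (16%). In set 2 the counts were 1 in RelA-TA2_CI (5.34%), 4 in RelA-TA2_CI-dTA1 (10.3%), 4 in RelA-TA2_S467A (4.78%), 19 in RelA-TA2_CI_S467A (6.95%) and 10 in RelA-TA2_CI_S467A-dTA1 (8.88%). Taken the same way in single sets, the counts were 10 and 6 in EV (sets 1 and 2; 17.2% and 11.6% of all genes), 14 and 3 in RelA-WT (10.8% and 5.42%), 9 and 1 in RelA-dTA1 (12.6% and 5.64%) and 9 and 9 in RelA-dTAD (14.1% and 10.2%). The summed CPM of the 20 genes at 8 h was 0.415 of the 0 h sum in RelA-TA2_CI_S467A and 0.676 of it in RelA-TA2_CI, the lowest and highest of the 15 courses. In RelA-TA2_CI_S467A, Ccnb2 went from 50.1 to 16.0 CPM and Mki67 from 283 to 102. In RelA-TA2_CI they went from 56.0 to 27.1 and from 229 to 157 CPM.

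Ccnd1 was the G1/S gene that passed 2-fold in these constructs. It went from 222 to 534 CPM in RelA-DB (2.41-fold) and from 192 to 439 in RelA-dCterm (2.28-fold), beside 2.13-fold in EV and 1.32-fold in RelA-WT of the same set. In set 2 it went from 301 to 648 CPM in RelA-TA2_CI-dTA1 (2.15-fold) and from 313 to 661 in RelA-TA2_CI_S467A-dTA1 (2.11-fold), beside 1.97-fold in EV and 1.35-fold in RelA-WT. In RelA-dTA1 of set 2 the fold was 1.47. The other folds of set 2 were 2.05 in RelA-dTAD, 1.53 in RelA-TA2_CI, 1.295 in RelA-TA2_S467A and 1.58 in RelA-TA2_CI_S467A. The other call past 2-fold among the G1/S genes was Rrm2 in RelA-TA2_CI_S467A, which went from 55.8 to 27.3 CPM. Past 2-fold at 8 h, 11.9% of all genes were higher in RelA-DB, 12.2% in RelA-dCterm, 8.8% in RelA-TA2_CI-dTA1 and 7.51% in RelA-TA2_CI_S467A-dTA1, and 6.95% were lower in RelA-TA2_CI_S467A. Ccnd1 and Mcm6 were above their 0 h level in 15 of 15 courses, and E2f1 and Mcm7 below it in 15 of 15.

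**Figure D4:**
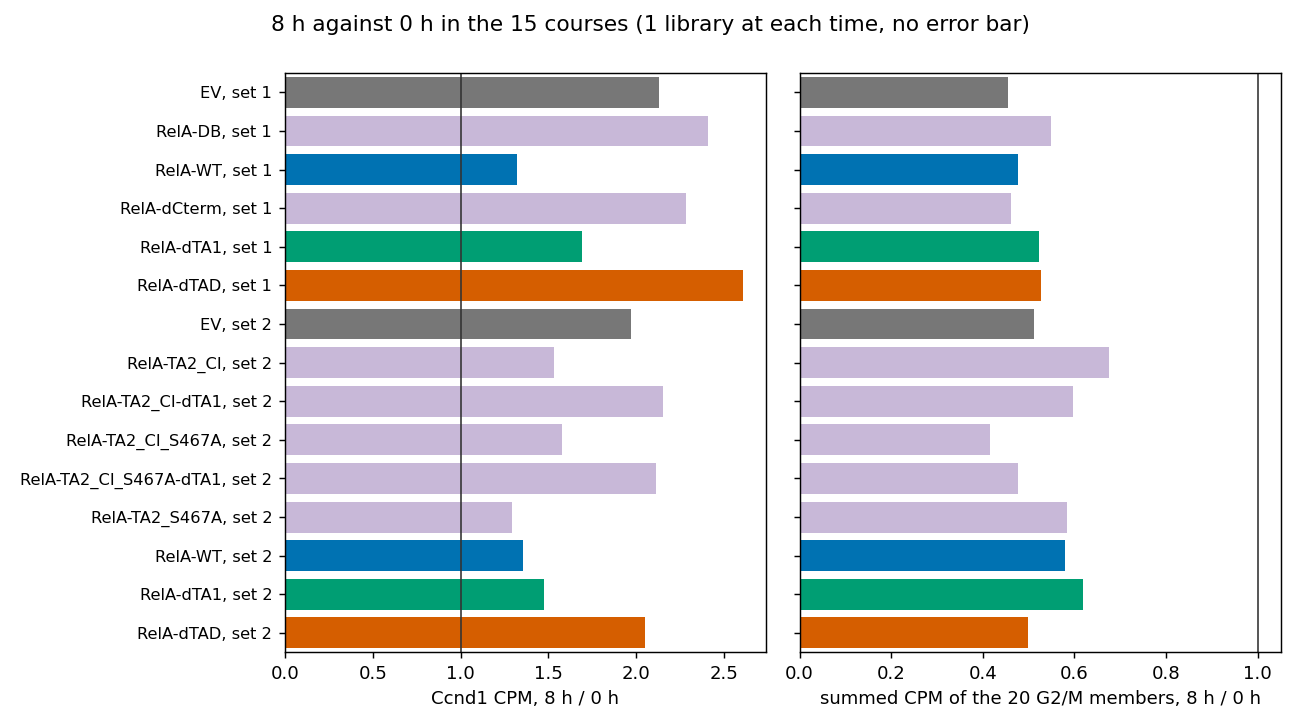
Ratio of the 8 h to the 0 h value in each of the 15 courses, 1 library at each time and so no error bar, for Ccnd1 CPM (left) and the summed CPM of the 20 G2/M genes (right); the line marks a ratio of 1. Ccnd1 runs from 1.295 to 2.61 and the G2/M sum from 0.415 to 0.676.

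Other genes of the cycle, from lists chosen with earlier results of these data known, give the setting. In the same 8 h comparisons 25.6% of all genes rose and 23.1% fell in EV, 15.8% and 11.6% in RelA-WT, 19.4% and 15.3% in RelA-dTA1, and 24.4% and 22.5% in RelA-dTAD, against which the counts are to be read. Of 36 further mitosis genes, 24 fell in EV, 23 in RelA-WT, 21 in RelA-dTA1 and 25 in RelA-dTAD at 8 h, and 0, 1, 1 and 0 rose. Among them Aspm, a spindle pole protein, went from 60.6 ± 10.53 to 17.1 ± 3.44 CPM in EV (SD, n = 2; log2 -1.77, adjusted p = 2.08e-05) and from 60.0 ± 10.2 to 28.6 ± 12.8 in RelA-WT (-1.03, 0.00625). Nusap1, which bundles spindle microtubules, fell by 1.65 on the log2 scale in EV and by 0.99 in RelA-WT, and the kinesin gene Kif2c fell by 1.60 and by 1.02. Of 34 further S phase genes, 4 rose and 5 fell in EV, 0 and 5 in RelA-WT, 2 and 3 in RelA-dTA1 and 2 and 8 in RelA-dTAD. Cdca7 rose in EV (1.45, adjusted p = 0.000647) and stood at 0.82 in RelA-WT (0.0626, and 6.51e-06 with the block). Gmnn, which encodes the Cdt1 inhibitor geminin, fell in both (-0.84 and -0.96), as did Rfc4, a subunit of the clamp loader (-0.73 and -0.64).

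Of 12 early G1 and growth factor response genes, 9 rose in EV, 5 in RelA-WT, 7 in RelA-dTA1 and 9 in RelA-dTAD, and none fell. Myc went from 51.7 ± 7.08 to 394 ± 9.61 CPM in EV and from 57.8 ± 8.51 to 158 ± 17.9 in RelA-WT, and the difference of the 8 h change was called (1.52 ± 0.33, adjusted p = 0.00184). Fosl1, an AP-1 subunit, went from 7.35 ± 2.18 to 169 ± 8.34 CPM in EV and from 11.3 ± 1.36 to 38.3 ± 0.724 in RelA-WT (difference 2.78 ± 0.29, 3.31e-07), and Ier3 had a difference of 1.49 ± 0.51 (0.046). In all, 5 of the 12 genes had a higher change in EV than in RelA-WT; the other two, Plk3 and Odc1, were named after their values were seen. Of 18 CDK inhibitors and brakes, 4 rose and 8 fell in EV and 5 rose and 5 fell in RelA-WT; the 4 that rose in EV are close to the share of all genes (25.6%). Cdkn1b, which encodes the CDK inhibitor p27, went from 155 ± 9.60 to 46.4 ± 3.77 CPM in EV and from 145 ± 2.34 to 66.6 ± 9.46 in RelA-WT (difference -0.59 ± 0.14, 0.00432). Ccng2, a cyclin of resting cells, went from 88.2 ± 4.71 to 19.6 ± 5.07 CPM and from 84.4 ± 4.79 to 51.5 ± 5.10 (difference -1.40 ± 0.20, 2.07e-05), while Btg2, an antiproliferative gene, rose by 2.77 in EV and 1.44 in RelA-WT on the log2 scale.

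Of 15 E2F, DREAM and mitotic transcription factor genes, 5 rose and 2 fell in EV and 2 rose and 2 fell in RelA-WT. E2f4, whose product sits in DREAM, rose in EV from 42.3 ± 3.71 to 93.9 ± 7.32 CPM (log2 1.19, adjusted p = 8.84e-07) and in RelA-WT from 45.1 ± 1.81 to 62.0 ± 0.676 (0.46, 0.0282), and the difference was called (0.72 ± 0.22, 0.0218). E2f3 rose by 0.82 in EV and 0.50 in RelA-WT, and Tfdp2, a partner of the E2F proteins, fell by 0.95 and by 0.75, all on the log2 scale. In EV minus RelA-WT at 8 h, 0 of the 36 mitosis genes passed, 1 of 34 S phase genes was higher and 6 of the 18 brakes were lower, where 9.67% of all genes were higher and 7.9% lower. Like E2f4, E2f6 was higher. The block added calls, where 18.3% were higher and 15.2% lower. Added as higher were Anln, Mcm10, Prim2, Slbp, Hells, Cdca7, Cdc25a, Plk2, Cdkn1a, Btg2, E2f2, E2f7, E2f8 and Tfdp1. Added as lower were Nusap1, Spc25, Pttg1, Gins4, Cdkn2d, Rbl1 and Gadd45a. Genes named only here were chosen after their values were seen. With the block more S phase genes fell at 8 h (15 in EV, 16 in RelA-WT, 15 in RelA-dTA1 and 19 in RelA-dTAD). In that fit 32 of 36 mitosis genes fell in each construct, and 8 brakes fell in RelA-WT and in RelA-dTA1. Of the E2F and DREAM list, 6 genes fell in RelA-WT and 5 in RelA-dTA1. These block counts cover falls only and are to be read against larger shares. Among all genes the block gave falls for 30.7% in EV, 21.7% in RelA-WT, 25.6% in RelA-dTA1 and 31.6% in RelA-dTAD.

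**Figure D5:**
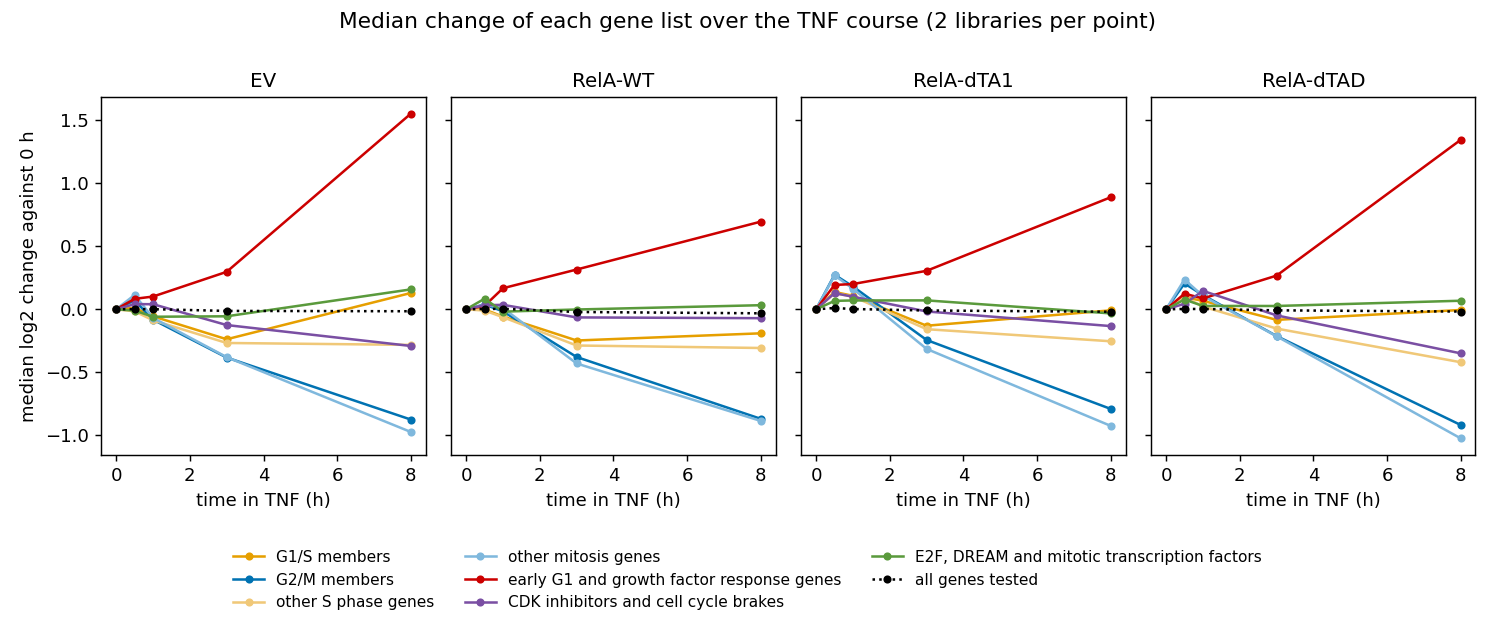
Median log2 change against 0 h (y axis) of each gene list at each time in TNF (x axis, h) in the 4 replicated constructs, from the fit without the set, with 2 libraries per point. The G2/M and other mitosis lists end between -0.79 and -1.02, and the early G1 list ends highest in EV and RelA-dTAD.

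Markers of other cell types were looked at beside the late changes. The summed fibroblast markers had a median of 48518 CPM at 0 h and 51807.9 at 8 h over the 15 courses, and the macrophage markers 2.87 and 3.49. The neural list, of which Map2 and Tubb3 carried most reads, had a median sum of 211 CPM at 0 h and 118 at 8 h, and its part in the results was not tested. Of the 39 members, 9 had exons that overlapped a gene on the other strand, and besides those named above these were Cdc20, Cdc45, Gins2 and Ube2c.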

How the data were processed

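The deposited files hold raw read counts per gene in 2 tables, 1 for each set. Per the submitters' processing notes, the authors used cutadapt 1.9.1, STAR, featureCounts 1.5.0 and DESeq2 with the mm10 build; per the labels' protocols the libraries came from a stranded kit with single-end reads, and whether the counting used strand is not given in the sources used here. Deposited totals were 4422396 to 6915919 counts per library in set 1 and 10440202 to 22908738 in set 2. From these counts, the 40 libraries of the 4 replicated constructs were fitted in R 4.3.3 with edgeR 4.0.16 (TMM scaling, filterByExpr, robust quasi-likelihood test, 20 residual degrees of freedom), with p-values adjusted by Benjamini-Hochberg over 13665 genes and a threshold of 0.05. The 7 constructs with 1 library at each time were described by CPM with a prior count of 2 over 15090 genes.

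Replicate number and deposited set coincide. Libraries of the same number deviated together in all 190 pairs of groups (correlation 0.353 to 0.662, median 0.519), so a fit with the set as a block was also made. The pairing comes from these correlations and from the deposited sets; the labels name no shared litter, batch or day. No pair of replicates held identical values. Alternatives were the block, DESeq2 1.42.0, other size factors, no filter, all 75 libraries, and each replicate left out.

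The members and lists were chosen with earlier results of these data known. Genes named with values were, in each of the G1/S and G2/M lists, the 4 with the largest 8 h change in EV and the 4 in RelA-WT, the 3 with the largest difference between these constructs, and always Ccnd1, Ccne1, Ccna2, Ccnb1, Mki67 and Pcna; from each further list, the 3 called genes with the largest 8 h change in EV. Promoter sequences came from RefSeq (GRCm38.p6) and matched 31 of 39 members by symbol.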

Additional observations from a re-analysis of the deposited data

Results flagged for a closer look

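The difference of the 8 h change between constructs was called for 10 gene and construct pairs in the edgeR fit with the replicate block, and for none of them in the fit without the block that keeps the filter on low counts. With neither block nor filter 5 of the 10 were called, Ccnd1, Cdt1 and Rrm2 in EV minus RelA-WT and Ccnd1 and Cdt1 in RelA-dTAD minus RelA-WT. For EV minus RelA-WT the log2 differences with the block were 0.65 for Ccnd1 (adjusted p = 6.09e-05, and 0.453 without the block), 0.91 for Ccne2 (0.0441 and 0.345), 1.09 for Cdt1 (1.13e-05 and 0.0689), 0.45 for Rrm1 (0.0228 and 0.592), 0.67 for Rrm2 (0.00769 and 0.403) and -0.40 for Mcm6 (0.00749 and 0.291). For RelA-dTAD minus RelA-WT they were 0.78 for Ccnd1 (4.79e-06 and 0.398), 0.79 for Cdc6 (0.0401 and 0.513), 0.84 for Cdt1 (0.000325 and 0.203) and -0.40 for Mcm6 (0.00701 and 0.328). Both comparisons share the RelA-WT libraries, and all 10 pairs are G1/S genes. Such calls were common over all genes with the block. In EV minus RelA-WT 18.3% of all genes were higher and 15.2% lower. In RelA-dTAD minus RelA-WT 14.9% were higher and 12.9% lower.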

How the results depend on the processing

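With the replicate block, G1/S genes higher at 8 h numbered 4 in EV, 2 in RelA-WT, 3 in RelA-dTA1 and 3 in RelA-dTAD, and those lower 2 in EV, 7 in RelA-WT and 5 in RelA-dTA1. G2/M genes lower at 8 h became 20 in RelA-WT, RelA-dTA1 and RelA-dTAD. At 3 h, 11, 13 and 6 G2/M genes were called in EV, RelA-WT and RelA-dTA1, and 3, 10, 4 and 1 G1/S genes in those and RelA-dTAD; 1 gene was called in the first hour. The block gave 5 higher and 1 lower G1/S genes in EV minus RelA-WT and 3 and 1 in RelA-dTAD minus RelA-WT. It took no call of a named gene away and added 25.

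With no filter on low counts, G1/S genes higher at 8 h numbered 4, 2 and 2 and lower 1, 3 and 3 in EV, RelA-WT and RelA-dTA1. G2/M genes lower at 8 h were 20 in RelA-WT, RelA-dTA1 and RelA-dTAD. At 3 h, 6, 8, 5 and 2 G2/M genes were called in EV, RelA-WT, RelA-dTA1 and lastly RelA-dTAD and 5 G1/S genes in RelA-WT. Of all 27388 genes, 514, 2048, 1800 and 423 were called there in the same order. The differences gave 3 higher for EV minus RelA-WT and 2 for RelA-dTAD minus RelA-WT. The members' own counts are the same in this fit, and only the genes used for scaling and spread differ. Its lower p-values are therefore no further evidence from the libraries. The cause of the added calls was not tested.

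Leaving out 1 replicate gave 5 to 6 G2/M genes lower at 8 h in EV, 5 to 8 in RelA-WT, 1 to 5 in RelA-dTA1 and 6 to 6 in RelA-dTAD. G1/S genes higher were then 0 to 0 in EV and 0 to 1 in RelA-WT, RelA-dTA1 and RelA-dTAD, and G1/S genes lower were 0 to 0 in RelA-dTAD. The lone library left is assumed to vary like the other groups. At 1.5-fold in place of 2-fold, G2/M genes lower numbered 15 in RelA-DB, 18 in RelA-dCterm, 7 in RelA-TA2_CI, 13 in RelA-TA2_CI-dTA1, 17 in RelA-TA2_S467A and 20 in RelA-TA2_CI_S467A-dTA1, and over the 7 constructs there were 10 higher and 12 lower G1/S calls. The share of all genes past 1.5-fold was not counted, so these numbers cannot be read as a result about the members. In promoters from 100 bases before to 50 after the start, E2F sites were in 4 G1/S and 0 G2/M genes and the kB motif in 1 G2/M gene.

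Other size factors, DESeq2 and the fit of all 75 libraries moved no count of members by over 1.5 times. No result reversed. Depth limits the lowest genes, with as few as 15 reads in a library of set 1, and 2 libraries a group limit each test.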
